A study of Mus musculus with 2031 samples.

Results

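Gfap, Vim, Nes and Synm encode proteins of intermediate filaments, and their counts were followed in single cells of the mouse cortex and hippocampus. They are 4 of the 49671 gene identifiers counted in each cell and were chosen by name. The cells came from C57BL/6J mice at postnatal day 56, in 2 cortical suspensions (1C and 2C, each from 1 animal, littermates of a single litter) and 2 hippocampal suspensions (1H and 2H, each pooled from 4 littermates, of other litters). Sorting was the same for all suspensions. Single cells were taken as positive for ACSA-2, an antibody to the astrocyte surface protein ATP1B2. They were negative for the oligodendrocyte antibody O1 and for the dead-cell dye 7-AAD. One library was made per well with Smart-seq2, which copies whole polyadenylated transcripts and adds no molecular tags, so a count is a read. Since litter and pooling differ with brain area, their parts in a difference between areas cannot be told apart. The thermal block of the library PCR also mostly differed with area, as given below.

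Intermediate filaments are rope-like polymers of the cytoskeleton that give a cell mechanical strength. In astrocytes Gfap, glial fibrillary acidic protein, and vimentin (Vim) form the main filaments, and Gfap is the classic marker that rises when astrocytes react to injury. Nestin (Nes) is best known from neural stem and progenitor cells and is also made by endothelial cells and pericytes. Synemin (Synm) is a large filament protein that needs a partner such as vimentin or desmin to assemble and is also found in muscle. Nestin likewise assembles only together with a partner.

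On GRCm38, Gfap (ENSMUSG00000020932.14) lies on the minus strand of chromosome 11 from 102887336 to 102900912, and Vim (ENSMUSG00000026728.9) on the plus strand of chromosome 2 from 13573927 to 13582826. Nes (ENSMUSG00000004891.16) lies on the plus strand of chromosome 3 from 87971078 to 87980451. Synm (ENSMUSG00000030554.16) lies on the minus strand of chromosome 7 from 67730160 to 67759742. The libraries keep no strand, and Gfap overlaps the long noncoding RNA Gm26668 on the other strand, while Synm overlaps Ttc23 and Gm45102 there, so reads from the shared stretches cannot be told apart. Vim and Nes overlap no other annotated gene.

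The 250 bases before the RefSeq start of the first 3 genes are shown because their RNAs differed so widely between the cell types described here. They were read from RefSeq on GRCm38.p6, at chr11:102897201-102897450 (minus strand), chr2:13574061-13574310 (plus strand) and chr3:87970843-87971092 (plus strand), and are written 5′ to 3′ with motif matches in capitals.
Gfap: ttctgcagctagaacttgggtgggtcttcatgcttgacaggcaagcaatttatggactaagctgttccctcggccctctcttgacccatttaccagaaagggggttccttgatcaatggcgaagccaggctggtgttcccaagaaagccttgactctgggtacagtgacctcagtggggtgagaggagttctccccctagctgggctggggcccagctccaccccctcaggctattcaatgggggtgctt
Vim: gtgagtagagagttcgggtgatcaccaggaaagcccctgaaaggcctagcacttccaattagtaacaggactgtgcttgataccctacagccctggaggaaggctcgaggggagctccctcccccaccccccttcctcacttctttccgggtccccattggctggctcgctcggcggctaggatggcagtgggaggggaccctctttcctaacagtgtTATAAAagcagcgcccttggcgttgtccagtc
Nes: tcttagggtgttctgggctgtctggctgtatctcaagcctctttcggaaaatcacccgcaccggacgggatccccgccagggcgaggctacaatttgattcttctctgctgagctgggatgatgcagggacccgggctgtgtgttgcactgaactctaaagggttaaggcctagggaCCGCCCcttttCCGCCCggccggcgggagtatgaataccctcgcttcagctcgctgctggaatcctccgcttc
The RefSeq starts of all 3 lie inside the gene spans given above, downstream of the first annotated base, and the Gfap and Vim stretches lie wholly within them.

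Both strands were searched for the STAT motif TTCNNNGAA, the NFI motif (TTGGC, then GCCAA after a gap of 5 bases), the AP-1 motif TGANTCA, the TATA box TATAAA, the SOX motif CATTGT, the E-box CANNTG and the GC box GGGCGG. The Vim stretch holds a TATA box 32 bases before the start, a motif present in 12.4% of 32851 mouse promoter stretches of the same length. The Nes stretch holds 2 GC boxes, read on the other strand, at 73 and 62 bases before the start; 32.7% of the stretches hold at least 1. Neither motif overlaps another match. None of these letters was found in the Gfap stretch, where 55.6% of the bases are G or C.

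The deposited counts cover 2030 cells on 32 plates, with 600758 to 3238215 gene counts per cell (median 1458411) and a median of 2114 genes detected. Cell types and the astrocyte subtypes AST1 to AST5 are those the study assigned: 1781 astrocytes (657 AST1, 555 AST2, 91 AST4, 26 AST5 and the rest AST3), mural cells of vessel walls (27, 12, 48 and 47 in 1C, 2C, 1H and 2H), 30 endothelial cells, 17 neurons, 11 microglia and 9 oligodendrocytes. The study clustered these very counts to define both the cell types and the astrocyte subtypes. Differences between types or subtypes are therefore given as a description, and their p-values are not independent evidence. A gene was called detected in a cell from 1 count on, and the suspension was taken as the replicate. All 10 astrocyte markers looked at were detected in over 50% of cells of AST1, AST2, AST3 and AST5. In AST4 this held for 7, and Aldh1l1, Gjb6 and Aqp4 were detected in 15.4%, 31.9% and 41.8% of its cells. All 6 endothelial markers were detected in over 50% of endothelial cells, and 5 of 7 mural markers in over 50% of mural cells.

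Gfap RNA was the most widely detected of the 4 in astrocytes, with counts in 803 of 1781 cells (45.1%). Vim followed with 14.7% of them. Synm was found in 13 astrocytes (0.730%) and Nes in 9 (0.505%). Levels told the same order for the first pair also per length of exon: over all astrocytes Gfap stood at 137.7 CPM per kb and Vim at 14.1, against 0.205 for Nes and 0.168 for Synm, whose order is not meaningful with so few cells. CPM express a gene's counts relative to all gene counts, both summed over the cells named.

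**Figure D1:**
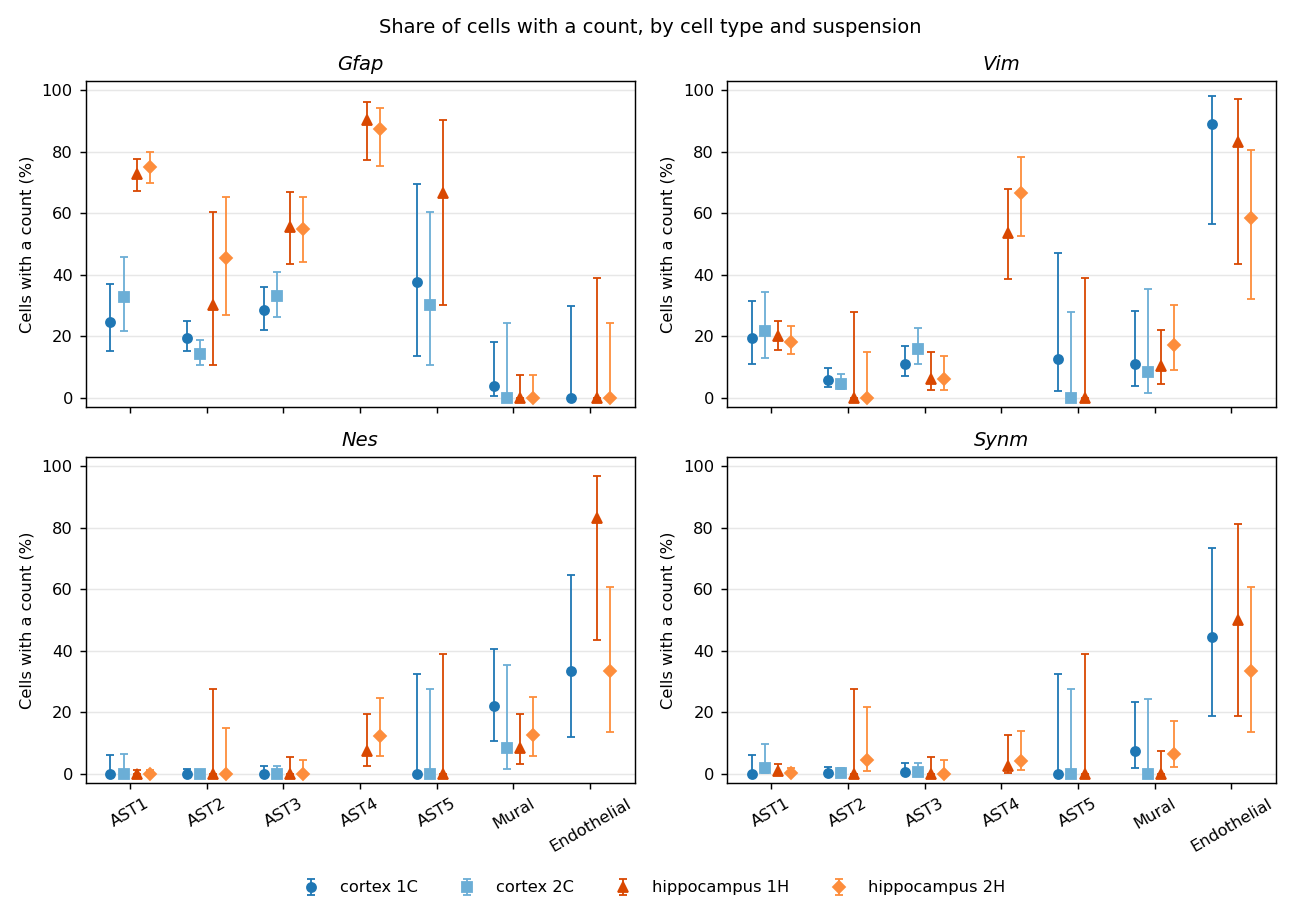
Share of cells with at least 1 count of each gene (y axis, percent) by cell type (x axis), with a marker per suspension of at least 5 cells and bars for Wilson 95% intervals, which cover counting error only. Gfap is seen in every astrocyte subtype and in none of the endothelial cells plotted, whereas the highest shares of Vim are those of endothelial cells and AST4.

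Gfap, the filament protein by which astrocytes are commonly recognised, was detected far more often in hippocampal than in cortical astrocytes. It had counts in 23.9% of the astrocytes of 1C and 22.2% of those of 2C, against 70.5% in 1H and 71.3% in 2H. The means were 23.1% ± 1.14 in cortex and 70.9% ± 0.550 in hippocampus (SD, n = 2 suspensions each), a difference of 47.8 percentage points, and the areas did not overlap. An exact two-sided permutation test gave p = 0.33, the smallest that 2 suspensions against 2 allow. Depth was close in both areas, with median gene counts per astrocyte of 1512180 in cortex and 1434900 in hippocampus. With each cell thinned to 50000 counts the difference was 47.02 points, and with at least 10 counts required it was 47.6 points.

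The summed level of Gfap was 157.5 and 166.1 CPM in the cortical suspensions and 1148 and 1036 CPM in the hippocampal ones. Hippocampal sums were thus far above both cortical sums. The difference was 2.78 on the log2 scale (SE 0.085) with edgeR's quasi-likelihood test, adjusted p = 0.125. In that comparison edgeR called 0 of 19160 genes (0%), with 2609 at an unadjusted p under 0.05, and none of the 4 filament genes was called. DESeq2 called 9.70% of the genes and limma on mean log values 2.64%, and in both Gfap and Vim passed. More cells with Gfap were not the only difference: among cells with a count, the median level was 586 and 629 CPM in 1C and 2C, and 1033 and 1099 CPM in 1H and 2H. Over all 803 astrocytes with Gfap the median was 870 CPM and the highest single cell reached 12560 CPM.

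The area difference was also present within subtypes. AST1 was the most common subtype in hippocampus. Gfap was detected in 24.6% and 32.7% of AST1 cells of 1C and 2C, and in 72.7% and 75.2% of those of 1H and 2H. The summed levels were 226.4 and 415.1 CPM in cortex and 1172 and 1055 CPM in hippocampus, without overlap. The log2 difference was 1.82 (SE 0.36), adjusted p = 0.257 with edgeR, which called 0 of 15521 genes (0%), with 2023 at an unadjusted p under 0.05. DESeq2 called 2711 genes there, Gfap included.

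In AST3 the shares were 28.6% and 33.1% in cortex and 55.4% and 54.9% in hippocampus. The levels were 164.3 and 213.4 CPM against 557.9 and 465.5 CPM, again without overlap, and the log2 difference was 1.49 (SE 0.19), adjusted p = 0.380 with edgeR. That test called 0 of 14960 genes (0%) within AST3, with 1547 at an unadjusted p under 0.05, and DESeq2 called 2067, Gfap included. The area difference in AST1 exceeded that in AST3 by 0.33 (SE 0.74) on the log2 scale, p = 0.67 before adjustment with edgeR (adjusted p = 1.00), a comparison added after the values had been seen. With an SE of this size the effects in the subtypes are not told apart, nor shown to be alike.

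AST2 was mostly cortical, with 32 of 555 cells from hippocampus. Gfap was detected in 19.6% and 14.1% of AST2 cells in cortex and in 3 of 10 and 10 of 22 cells in hippocampus, with levels of 118 and 82.9 CPM against 205.3 and 621 CPM. AST5 had few cells. Gfap was found in 3 of 8, 3 of 10 and 4 of 6 AST5 cells of 1C, 2C and 1H and in both of the 2 cells of 2H.

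**Figure D2:**
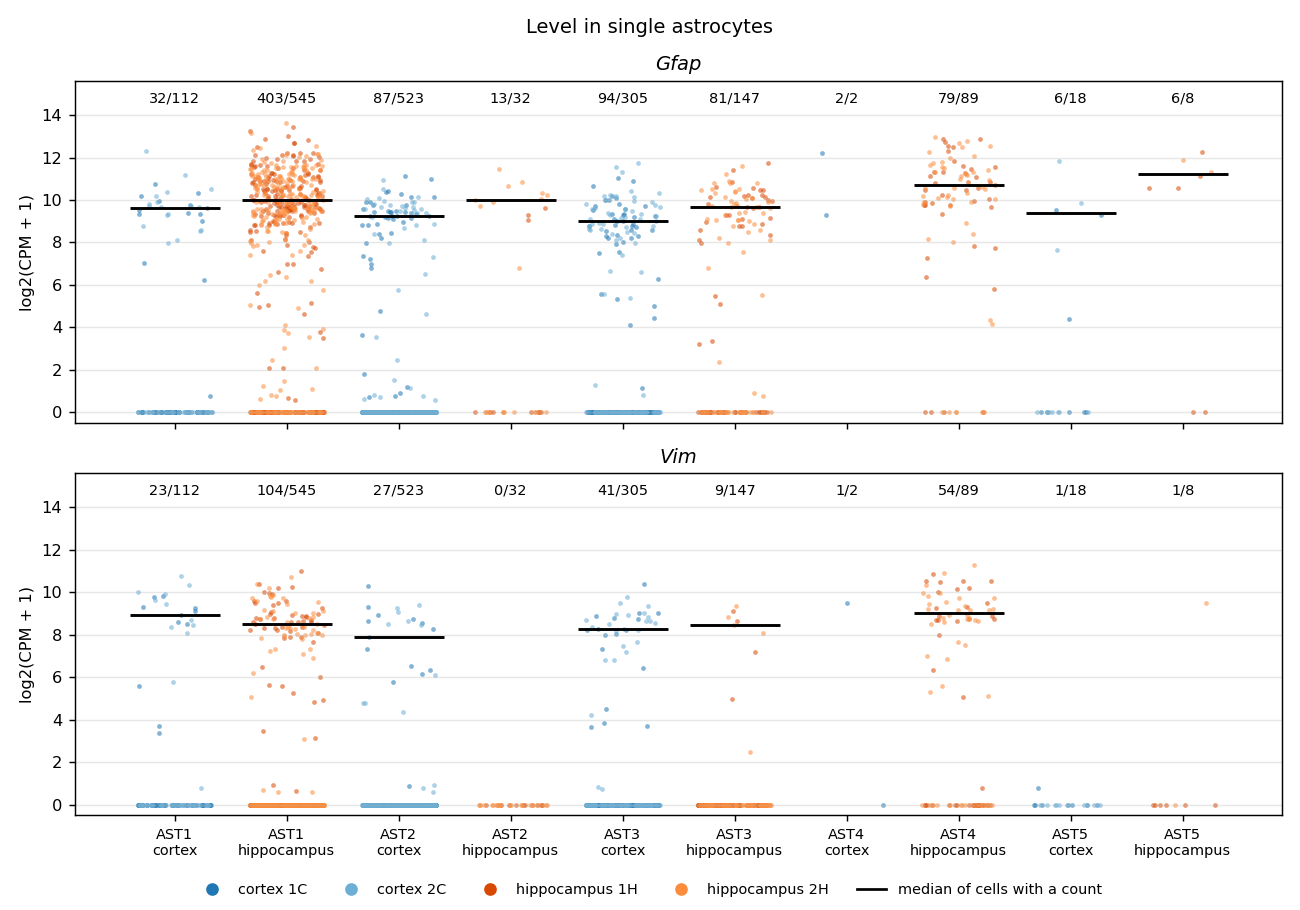
Level of Gfap and Vim in single astrocytes (y axis, log2(CPM + 1)) by subtype and brain area (x axis), with a point per cell coloured by suspension, a black line at the median of the cells with a count where these number at least 5, and the number of such cells of all cells printed above. For Gfap the cells lie in a cloud near the line or at 0, and the cloud holds most hippocampal but a minority of cortical AST1 cells.

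The labels give dates of reverse transcription, sequencing pools, index kits, plates and the thermal blocks of reverse transcription and library PCR. The area difference of Gfap was looked at within each. Hippocampal astrocytes had the higher share on 10 of 10 dates with both areas, in 8 of 8 pools and with 4 of 4 index kits. The same held on 3 of 3 reverse transcription blocks. Some days carry a second date label, and each label was counted as a date. The share over dates ran from 13.2% to 34.04% in cortex and from 61.1% to 77.5% in hippocampus. Within AST1 and within AST3 the hippocampus was higher on 9 of 10 dates each. Each plate held cells of a single area, and no cortical plate (11.5% to 34.04%) reached the lowest hippocampal plate (61.1%).

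Between subtypes, Gfap was detected most often in AST4, in 37 of 41 cells of 1H (90.2%) and 42 of 48 of 2H (87.5%), and in both AST4 cells of 1C. AST4 levels of 2126 and 2039 CPM were close to each other and above those of AST1 in the same suspensions. The order over all cells ran from AST4 (89.01%) through AST1 (66.2%), AST5 (46.2%) and AST3 (38.7%) to AST2 (18.0%). With 12 of 26 cells, the place of AST5 beside AST3 in this order is not settled. Area enters this order, since 545 of 657 AST1 cells were hippocampal. Within hippocampus AST1 (72.7% and 75.2%) lay above AST3 (55.4% and 54.9%) without overlap, while within cortex AST1 (24.6% and 32.7%) and AST3 (28.6% and 33.1%) overlapped and AST2 (19.6% and 14.1%) lay below both.

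With brain area as a term, each subtype was set against the others in edgeR. Gfap differed by 1.32 (SE 0.38) on the log2 scale in AST4, adjusted p = 0.228, where edgeR called 0.636% of 18233 genes. The difference was 1.21 (SE 0.29) in AST1, adjusted p = 0.513, with 0.0384% of genes called. In AST2 it was −1.36 (SE 0.33), adjusted p = 0.542 with edgeR and 0.0548% called. None of these passed. In AST3 the difference was −0.29 (SE 0.31), and −0.57 to 0.20 with suspensions left out. There edgeR called 0% of genes, with 1.89% at an unadjusted p under 0.05. DESeq2 called 727 genes in that contrast and limma 3.

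Outside astrocytes, Gfap was rare. It had no count in 30 endothelial cells, 17 neurons and 9 oligodendrocytes, which allows shares of up to 10%, 17.6% and 33.3%. Of the mural cells 1 had Gfap, with a single count. Of 11 microglia 2 had Gfap, both from 2C, with 1 and 1161 counts. The summed astrocytic level (581 CPM) was at least 8285-fold higher than in endothelial cells, taking 3 counts over that group as its floor (read counting only, not the draw of cells), and 99444-fold higher than in mural cells (counting interval 17848 to 3.93e+06, from that 1 count). Gfap was lower than in astrocytes by edgeR in endothelial cells (adjusted p = 0.00383, 22.6% of 15974 genes called) and in mural cells (adjusted p = 0.00197, 20% called). Leaving out 2H raised these to 0.0615 and 0.0555, and leaving out 1H raised the endothelial value to 0.0566.

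Vim, a filament protein of many migratory and mesenchymal cells and of immature astrocytes, was also detected more often in hippocampal astrocytes. It had counts in 9.54% of astrocytes of 1C, 9.82% of 2C, 20.4% of 1H and 20.6% of 2H. The means were 9.68% ± 0.195 and 20.5% ± 0.145 (SD, n = 2 each), 10.8 percentage points apart without overlap, and the exact permutation test again gave p = 0.33. The summed levels were 31.6 and 39.2 CPM in cortex and 105.4 and 104.8 CPM in hippocampus. The log2 difference was 1.59 (SE 0.16), adjusted p = 0.155 with edgeR. Hippocampal astrocytes had the higher share on 10 of 10 dates and in 8 of 8 pools. On library PCR block 1 the shares were 9.69% in cortex and 17.7% in hippocampus.

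Within subtypes Vim did not follow this pattern. In AST1 its shares were 19.3%, 21.8%, 19.9% and 18.2% in 1C, 2C, 1H and 2H, and its levels 76.7, 143.4, 87.7 and 80.2 CPM, so the areas overlapped. The log2 difference was −0.37 (SE 0.39), adjusted p = 0.943 with edgeR, and without 2C it was 0.19. In AST3 cortex was the higher side, with 11.04% and 15.9% against 6.15% and 6.10% and levels of 30.6 and 55.3 against 23.3 and 24.7 CPM. Those groups did not overlap, and the log2 difference of −0.79 (SE 0.43) did not pass (edgeR, adjusted p = 0.737). In AST2 Vim was found in 5.83% and 4.59% of cortical cells and in 0 of 32 hippocampal cells, which allows a share of up to 9.38%. That limit lies above the cortical shares, so the areas are not told apart in AST2.

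The mix of subtypes differed between the areas. AST1 made up 12.4% and 11.02% of cortical and 68.96% and 64.02% of hippocampal astrocytes. AST4 made up 10.4% and 11.2% of hippocampal astrocytes but held 38.9% and 45.6% of their Vim counts, against 2 cells in 1C and 0 in 2C. Without AST4 cells, an alternative added after the values had been seen, Vim was detected in 9.37% and 9.82% of cortical and 16.5% and 14.7% of hippocampal astrocytes, still without overlap. The log2 difference was then 1.04 (SE 0.19), adjusted p = 0.286 with edgeR.

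AST4 was the astrocyte subtype with the most Vim. It was detected in 22 of 41 cells of 1H (53.7%) and 32 of 48 of 2H (66.7%), at 405.1 and 420.4 CPM, above AST1 of the same suspensions in share and in level. Over all cells the order was AST4 (60.4%), AST1 (19.3%), AST3 (11.1%), AST5 (2 of 26 cells) and AST2 (4.86%). AST5 and AST2 are not told apart by their counting intervals, 2.14% to 24.1% and 3.36% to 6.99%. In the AST4 contrast Vim had adjusted p = 0.229 with edgeR. The fitted size depends on sums of other subtypes that held 0 counts and is therefore no bound.

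In AST5 the 3 sums of at least 5 cells held 1 Vim count in 24 cells, and edgeR called Vim lower there, adjusted p = 0.00585. That contrast called 17% of genes, and the median log2 difference over all 18233 genes was −4.55, so a call in it is common. Without 2C the adjusted p was 0.0593. The 2 AST5 cells of 2H, too few for a sum, held 782 Vim counts.

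**Figure D3:**
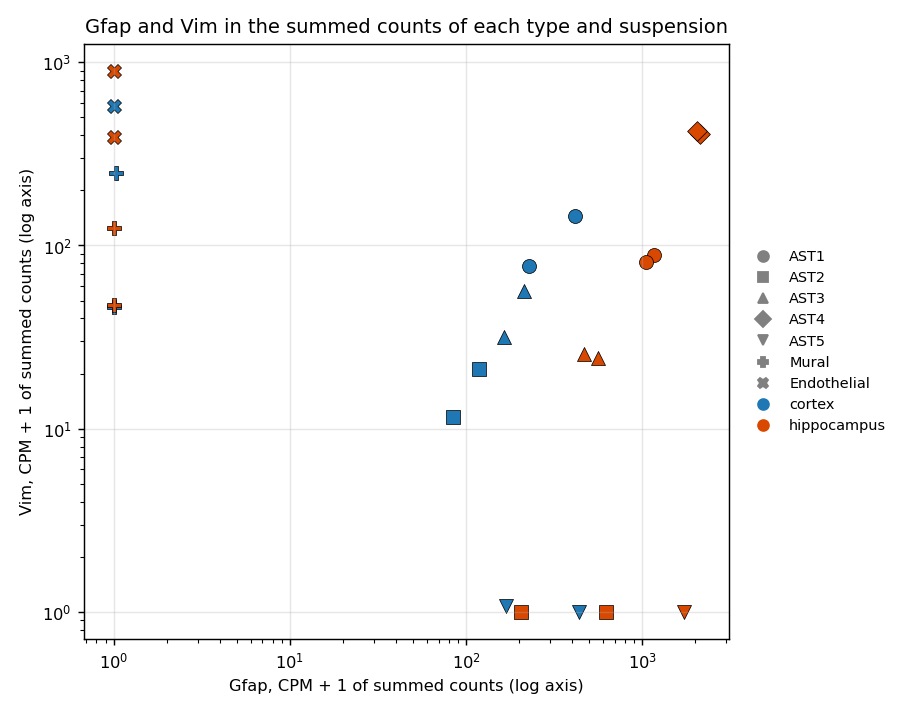
Gfap (x axis) against Vim (y axis) as CPM + 1 of summed counts on log axes, with a point for each cell type (marker shape) and suspension (colour by brain area) of at least 5 cells. Vessel cells lie at the left edge with Vim but almost no Gfap, the AST4 sums lie at the upper right, and hippocampal sums of AST1, AST2 and AST3 lie to the right of their cortical counterparts.

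Endothelial cells, which line the vessels, held more Vim than astrocytes. Vim was detected in 8 of 9 endothelial cells of 1C, 2 of 3 of 2C, 5 of 6 of 1H and 7 of 12 of 2H, at 576, 604, 893 and 390 CPM. Each of these levels lay above every sum over all astrocytes of a suspension, while those of AST4 (405.1 and 420.4 CPM) lay within their range. The log2 difference from astrocytes was 2.38 (SE 0.73), adjusted p = 0.0478 with edgeR (sums of 1C, 1H and 2H), and per length the endothelial level of Vim was 122.2 CPM per kb. This call was lost with the suspension as replicate block (log2 2.04, adjusted p = 0.153 with edgeR), without the low-count filter (0.0957) and with each suspension left out in turn (0.0924 to 0.138). Endothelial cells also had 2 of 7 mural markers in over 50% of cells, with a median summed mural level of 8373 CPM; their part in the result was not tested.

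Mural cells, the pericytes and smooth muscle cells around vessels, had Vim in 11.1%, 8.33%, 10.4% and 17.02% of cells in 1C, 2C, 1H and 2H. The levels were 246.2, 45.4, 46.3 and 122.9 CPM, which overlapped those of astrocytes. The log2 difference was 0.25 (SE 0.70), adjusted p = 0.901 with edgeR. It had no stable direction, at −0.64 to 0.76 with suspensions left out. Vim had no count in 17 neurons, 9 oligodendrocytes and 11 microglia, which allows shares of up to 17.6%, 33.3% and 27.3%.

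Nes, the progenitor filament protein, was detected in 9 astrocytes, and all 9 were hippocampal AST4 cells. They were 3 of 41 AST4 cells of 1H (7.32%) and 6 of 48 of 2H (12.5%), from 6 plates. None of 960 cortical astrocytes had a count, which allows a share of up to 0.313%. The hippocampal level of 2.91 CPM was at least 1450-fold that in cortex, and the AST4 level of 26.6 CPM at least 22897-fold that of the other 1690 astrocytes, both against a floor of 3 counts over the group. These floors cover read counting only, not which cells were drawn. Within hippocampus, no cell of the other subtypes had a count, which allows shares of up to 0.550% in AST1, 2.04% in AST3, 9.38% in AST2 and 37.5% in AST5. As 2 AST4 cells came from cortex, areas could not be compared within AST4. By edgeR the difference between areas had adjusted p = 0.211 and that of AST4 from the other subtypes adjusted p = 0.228. With DESeq2 both passed, at adjusted p = 3.00e-11 and 0.0488. In limma on mean log values AST4 passed (adjusted p = 1.83e-07) but the areas did not (0.0624). Of all genes DESeq2 called 9.70% between areas and 11.5% in AST4, and limma 2.64% and 12.4%.

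The 9 cells held 6 to 1068 Nes counts. The highest 3 of them had 1068, 828 and 588 counts. Gfap was detected in 8 and Vim in 5, and 4 had both. The cell without Gfap, from 2H, had 3662 counts of Vim and 5046 counts of Mki67, a gene of dividing cells, but 0 of Top2a, another such gene. All 9 had Slc1a3, an astrocyte glutamate transporter, whereas the water channel Aqp4 was detected in 5, of which 2 had a single count. The summed level of astrocyte markers in them ran from 9040 to 42486 CPM. Flt1, an endothelial marker, had 0 counts in all 9, and Pdgfrb, a mural marker, was detected in 2.

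Vessel cells carried Nes more often. It was found in 3 of 9, 2 of 3, 5 of 6 and 4 of 12 endothelial cells of 1C, 2C, 1H and 2H, at 255.3, 365.96, 437.6 and 130.7 CPM. In mural cells it was found in 6 of 27, 1 of 12, 4 of 48 and 6 of 47 cells, at 145, 0.135, 39.3 and 84.2 CPM. Every endothelial sum lay above every astrocyte suspension, whose highest value was 3.48 CPM, and 1 mural sum, that of 2C with 2 counts, did not. In AST4, the only subtype with Nes, the shares were 7.32% and 12.5% and the levels 23.2 and 30.6 CPM in 1H and 2H. Endothelial shares and levels lay above these, while mural shares and levels overlapped them. With edgeR the differences from astrocytes did not pass, with adjusted p = 0.114 for endothelial and 0.232 for mural cells. Of 11 microglia 1 had Nes, the cell of 2C with 1161 Gfap counts.

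Synm, the synemin gene, was scattered over astrocytes. Its 13 cells lay on 12 plates and comprised 5 AST1, 3 AST2, 2 AST3 and 3 AST4 cells, 8 of them hippocampal. The share was 0.434% and 0.601% in 1C and 2C and 1.02% and 0.935% in 1H and 2H, which do not overlap but rest on 2 to 4 cells each. The levels were 0.655, 1.71, 0.127 and 2.86 CPM, and these overlapped. The log2 difference of 0.36 (SE 1.69), adjusted p = 0.984 with edgeR, had no stable direction, at −3.20 without 2H and −0.19 without 1C. Within AST1 it was −5.62 (SE 3.85), adjusted p = 0.809 with edgeR, but 8.655 without 2C, of which 1 AST1 cell held 1287 counts. Against the other subtypes Synm had adjusted p = 1.00 in AST1, AST2 and AST3, 0.663 in AST4 and 0.202 in AST5 with edgeR. DESeq2 called it lower in AST3 (adjusted p = 0.00522), where 2 cells held it, and in AST5 (adjusted p = 0.0390), where none of 26 did. In these contrasts DESeq2 called 3.99% and 43.7% of all genes, so a call in AST5 is common.

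The 13 cells held 1 to 1287 Synm counts with a median of 40, so that a few cells carried most of the RNA. Gfap was detected in 9 and Vim in 2. A single AST4 cell of 2H with 566 Synm counts had neither Gfap nor Vim. Its summed mural markers stood at 16748 CPM and its fibroblast markers at 5942 CPM, against 5745 CPM for the astrocyte markers; their part in its Synm counts was not tested. The remaining 12 cells had at least 19842 CPM of astrocyte markers.

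**Figure D4:**
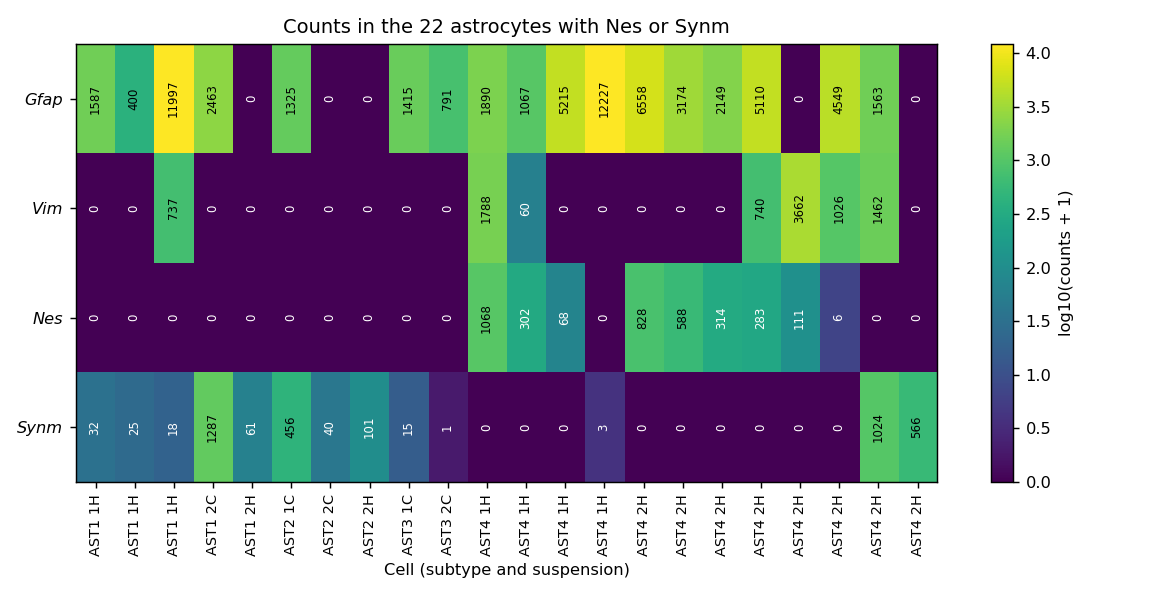
Counts of the 4 genes (rows) in each of the 22 astrocytes with Nes or Synm (columns, named by subtype and suspension), printed in each field and coloured by log10(counts + 1). The 9 cells with Nes are all AST4 cells, and no cell has both Nes and Synm.

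Synm was much more common in endothelial cells, at 4 of 9, 1 of 3, 3 of 6 and 4 of 12 cells in 1C, 2C, 1H and 2H. The levels of 89.8, 132.96, 220.3 and 138.01 CPM were all above those of the astrocyte suspensions. The edgeR test gave adjusted p = 0.139. In mural cells Synm was found in 2 of 27, 0 of 12, 0 of 48 and 3 of 47 cells (edgeR, adjusted p = 0.591). Among oligodendrocytes 2 of 9 had Synm, with 42 and 1365 counts.

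Joint detection was described for Gfap and Vim, which build the same filaments. Both were detected together in 13 to 77 astrocytes of each suspension. Over all, the product of the single shares over all astrocytes gives 117.7 cells, and the product taken within each subtype over all suspensions gives 158.2, so the observed number was 1.11 times the latter. With products taken within subtype and suspension it was 15 cells against 11.7 in 1C, 13 against 13.7 in 2C, 71 against 61.3 in 1H and 77 against 69.3 in 2H. The number was thus above the product in 3 of 4 suspensions. Vim was detected in 21.9% of astrocytes with Gfap and in 8.69% of those without.

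By subtype, cells with both numbered 98 against a product of 84.1 in AST1, 4 against 4.86 in AST2, 20 against 19.4 in AST3 and 52 against 48.96 in AST4. These products pool the suspensions. Cells with Vim had more genes detected (median 2425) than cells without (2108), at median depths of 1475730 and 1466530 gene counts. Cells with Gfap had a median of 2204 genes against 2092 without. The part of these numbers in joint detection was not tested. Requiring 10 counts of each gene gave a ratio of 1.14 to the product within subtypes, and thinning gave 1.14 as well.

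**Figure D5:**
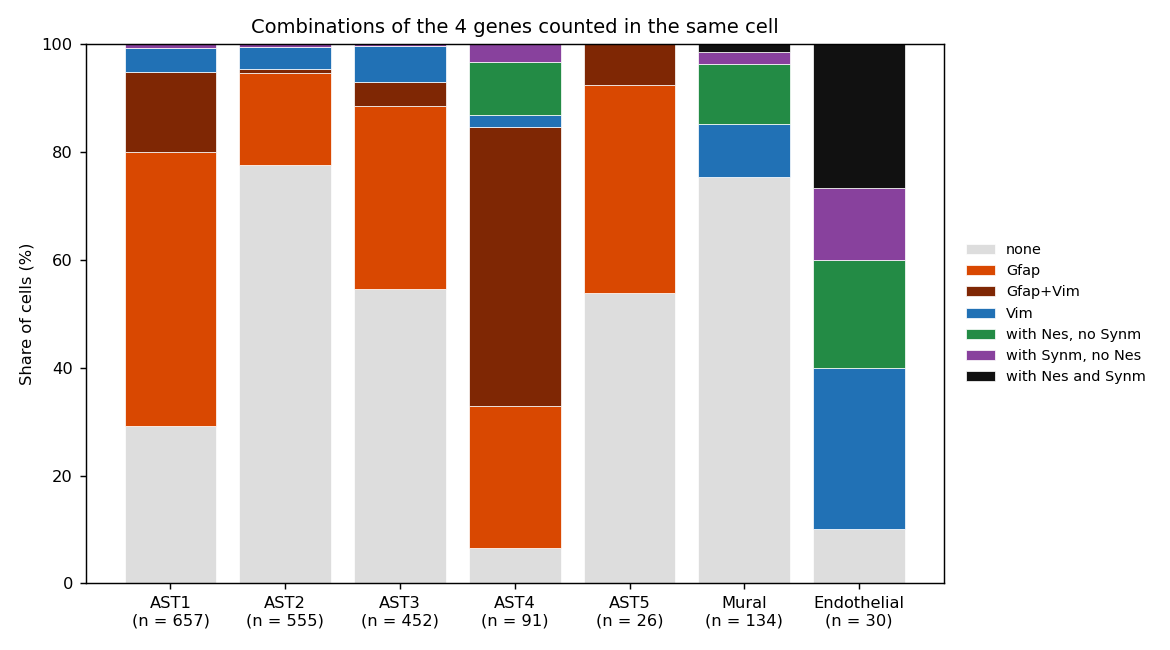
Share of cells (y axis, percent) of each type (x axis, with its number of cells) by the combination of the 4 genes detected in them; combinations with Nes or Synm are grouped. Most AST2 and mural cells have none of the 4, most AST4 cells have Gfap with Vim or Gfap alone, and endothelial cells have Vim, Nes and Synm in several combinations.

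The combinations are given by type as a description. Of 91 AST4 cells 47 had Gfap and Vim alone, 24 Gfap alone and 6 none of the 4. Of 657 AST1 cells 50.8% had Gfap alone, 14.8% Gfap and Vim alone and 29.2% none. In AST2 430 of 555 cells (77.5%) and in AST3 54.6% had none. In AST5 14 of 26 (53.8%) had none and 10 Gfap alone, shares close to those of AST3. Endothelial cells had a Gfap-free pattern: 6 of 30 had Vim, Nes and Synm together, 9 had Vim alone, 4 Vim and Nes alone and 3 none. Of the mural cells 75.4% had none of the 4.

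Genes that work with filaments were given as lists. In the comparison of areas over all astrocytes, where edgeR called 0% of all genes, it called 0 of the 10 tested genes among other intermediate filaments and lamins, 0 of 10 cytolinkers and filament anchors, 0 of 9 filament chaperones, 0 of 8 filament kinases, 0 of 16 regulators of Gfap and Nes transcription and 0 of 13 reactive astrocyte genes. The median log2 differences were −0.07, 0.15, −0.08, 0.15, 0.03 and 1.21 in that order, beside 0.01 over all genes tested. Within AST1 the same lists had medians of −0.35, 0.14, −0.01, 0.003, −0.35 and 0.47, beside 0.10 over all genes. Within AST3 they were 0.50, 0.16, −0.19, −0.18, −0.10 and −0.46, beside −0.04. Most of these lists had fewer genes tested than over all astrocytes. The numbers were 5, 9, 8, 5, 16 and 9 in AST1 and 5, 9, 8, 6, 16 and 7 in AST3. By edgeR no gene at all was called in either, so the lists have no edgeR calls to compare.

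In the subtype contrasts edgeR called no list gene in AST1, AST2 or AST3, where 0.0384%, 0.0548% and 0% of all genes were called. In AST4, where 0.636% of all genes were called, it called 1 of 13 reactive astrocyte genes and none of the other lists. That gene was Cp, ceruloplasmin, a copper protein that oxidises iron. It was detected in 4 of 89 AST4 cells and 6 of 1690 other astrocytes, at 24.4 and 0.0213 CPM (edgeR, adjusted p = 0.0251). Cp was also higher in mural cells than in astrocytes, by 8.83 (SE 2.54), adjusted p = 0.0392 with edgeR. An AST4 cell of 2H was high in mural markers. Without it, an alternative added after the values had been seen, edgeR called 0.620% of all genes in AST4. The part of that cell in the Cp call was not tested. The AST4 medians were 0.41 for other filaments and lamins, −0.60 for cytolinkers, 1.29 for chaperones, 0.55 for kinases, 0.22 for regulators and 2.46 for reactive genes, beside 0.05 over all genes.

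In AST5, where 17% of all genes were called (65 higher and 3029 lower), edgeR called list genes lower and none higher. They were 3 of 10 other filaments and lamins, 7 of 10 cytolinkers and anchors, 1 of 9 chaperones and turnover genes, 0 of 8 kinases, 5 of 16 regulators and 0 of 13 reactive genes. Macf1, a giant linker of actin and microtubules, showed the sharpest contrast in detection, with counts in 2 of 24 AST5 cells against 1632 of 1755 other astrocytes (92.99%), at 0.851 and 794 CPM. Of the other cytolinkers, Utrn and Tln1 had 0 counts in the 24 cells, Plec 1 count and Vcl 6 counts, against 63.7, 33.99, 46.2 and 77.6 CPM in the other astrocytes. Lmna, Krt10 and Iffo1 also had 0 counts there, as did Smad1 and Smad4. The transcription factors Nfib, Pou3f3 and Hes5 stood at 51.1, 53.8 and 146.4 CPM in AST5 against 180, 130 and 320.6 CPM elsewhere. The median log2 differences were −9.28, −7.35, −1.76, −0.73, −1.92 and −6.53 in the order of the lists, beside −4.55 over all genes, and genes with 0 counts make these fitted values no bound.

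Of all genes tested 22.6% were called in endothelial and 20% in mural cells, and the lists are to be read against these shares. With the suspension as replicate block edgeR called 2.72% and 3.04%, and without 1C, the lowest of the suspensions left out, 1.51% and 1.63%, so the calls below hold for the fit without the block. In endothelial cells 1 of 9 tested genes among other filaments and lamins was higher than in astrocytes and none lower. It was Lmna, the gene of the nuclear lamins A and C, with a log2 difference of 2.93 (SE 0.52), adjusted p = 0.0122 with edgeR. In mural cells Lmna was higher by 3.83 (SE 0.49), adjusted p = 0.00205 with edgeR, and Nefm, a neurofilament, was lower. Among cytolinkers 1 of 9 was higher and 3 lower in endothelial cells, and 3 were higher and 2 lower in mural cells. Utrn, utrophin, which ties the cytoskeleton to the membrane, was higher in both, by 3.31 (SE 0.43) and 3.26 (SE 0.40), with edgeR adjusted p = 0.00253 and 0.00182. Of the reactive astrocyte genes 4 of 11 were higher and 4 lower in endothelial cells, and 5 were higher and 4 lower in mural cells. Of 9 chaperones and turnover genes 1 was higher and 2 were lower in each of these types, the higher being Hspb1, a small heat shock protein, in both. Of 16 regulators 2 were higher and 5 lower in each type, and of 7 kinases none was called in either. Lmna, Nefm, Utrn and Hspb1 were picked after their values had been seen.

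The genes whose levels over the 17 subtype sums were most like those of a member are given with Pearson's r of log2 CPM, over points that share suspensions and subtypes. For Gfap they were Dbi (0.88), Ndufc2 (0.85), Nnat (0.82), Rps27 (0.80) and Tspan12 (0.79). For Vim they were Tnc, H2afy2, Chchd6, Lrrn1 and BC022960, at 0.99, 0.98, 0.98, 0.98 and 0.98. Vim stood at 0 CPM in the hippocampal AST2 sums and at 0 to 0.0812 CPM in the AST5 sums. Without the AST5 sums Tnc, Chchd6 and H2afy2 stayed among the first 5 for Vim, at 0.98 each. The part of the hippocampal AST2 points in r was not tested. For Nes they were Gm29538, Mycn, Gm45472, Mfap4 and Gm28703, all at 1.00, as any gene counted almost only in the AST4 sums would be. For Synm they were Gm49783, A730017L22Rik, Rbfox1, Gm9165 and Ifit1, from 0.85 to 0.82. By rank correlation the first 5 shared 2 genes with those named for Gfap, 1 for Vim, 0 for Nes and 1 for Synm.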

How the data were processed

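Single-cell Smart-seq2 libraries of 4 suspensions were used. The deposited files list, for each cell, unnormalized counts of every gene: the authors aligned reads to GRCm38.p5 with Gencode M12 and counted uniquely mapped reads with HTSeq, and the submitters' processing notes also name FastQC 0.11.4 and STAR 2.5.2b. Reads without a gene (12.2% of a cell's reads at the median) or on several genes (4.80%) and spike-ins stayed out of totals and tests. In a series-wide count table, 12 columns were compared with the cells' files for the 4 genes and held the same values; its other 2019 columns were not used. Cell types are the study's; 33 cells absent from the copy of that list used here and 15 without a type entered no comparison, and 1 listed cell was not analysed here. Each well held a single sorted cell, and no doublet caller was run.

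Counts were summed per suspension, or per type and suspension for at least 5 cells, and tested over all genes with edgeR 4.0.16 in R 4.3.3 (filterByExpr, TMM, robust quasi-likelihood F test, Benjamini-Hochberg adjusted p under 0.05). Areas were compared on 2 against 2 sums. Subtypes were each compared with the others weighted by cell number, and vessel cells with astrocytes, both with a term for area. The SE is the size of the log2 difference divided by the square root of F. Intervals of shares are Wilson 95% intervals, and a count of 0 is given a limit of 3 counts; both cover counting error only, since reads without molecular tags are not independent molecules. The tests were tried on simulated sums, whose outcome is not reported here. Alternatives used RLE factors, no filter, DESeq2 1.42.0, limma 3.58.1 on mean log2(CPM + 1), cells thinned to 50000 counts, other minimum cell numbers and weights, each suspension left out, and the suspension as replicate block, whose pairing is given because sums of a suspension come from the same animals. Positions and exon lengths come from Gencode M21 on GRCm38, a later annotation than the authors'.

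The 4 genes and all lists were chosen with earlier results of these data known. Named beside them are the 5 genes most like each of them, and list genes passing in an area or subtype comparison, at most 5 per list and comparison by size of change; some genes are not reported here. Cells of a suspension share animals and preparation, so they are not replicates. The p-values of the area comparisons measure only the spread between suspensions. Subtype and vessel-cell fits without the replicate block took sums of the same animals as separate points, so their p-values ignore that pairing. These types and subtypes were defined by clustering the same counts, so the p-values are also not independent evidence.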

Additional observations from a re-analysis of the deposited data

Results flagged for a closer look

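In 34 groups of 4 suspensions the highest or lowest value was compared with the others. For normally distributed values of a single population chance gives about 1 in 20 such groups a value this far away. These groups mix the areas and several hold very few counts, so that rate does not apply to them. Vim in AST1 was higher in 2C, at 143.4 CPM, than in the other suspensions, of which the next was 87.7 CPM. Synm in AST1 stood at 16.6 CPM in 2C, from 1 cell, with 0.178 CPM as the next value. Synm in AST2 was detected in 4.55% of cells of 2H, which is 1 of 22 cells, with 0.417% as the next value. Synm in AST3 stood at 0.0569 CPM in 1C, again from 1 cell, with 0.00373 CPM as the next value. Gfap in mural cells was detected in 3.70% of cells of 1C, at 0.0278 CPM, from 1 count, and in no mural cell of the other suspensions.

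Cells outside the comparisons also held filament genes. Of the 15 cells without a type, 6 had Gfap (40%) and 2 had Vim (13.3%). Of the 33 cells of 1C that were not in the copy of the type list used here, 8 had Gfap (24.2%), 3 had Vim (9.09%) and 1 had Synm (3.03%). No area effect on a filament gene was shown to differ between AST1 and AST3.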

How the results depend on the processing

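Of the alternative values 86.3% kept their direction and their side of the threshold, while 27 came to pass the test, 11 no longer passed, 12 turned in direction and 6 moved; the cause was not tested. The area difference passed for Gfap with DESeq2 (2.78 on the log2 scale), thinning (2.84) and limma (4.94), and for Vim likewise (1.599, 1.52 and 0.97). Within AST1 and AST3 Gfap passed with DESeq2 (1.77 and 1.52). Against the other subtypes, Vim passed in AST4 with DESeq2 (4.88), thinning (4.48), equal weights (7.58) and limma (4.54). In AST2 Vim passed with DESeq2 (−4.19) and limma (−1.35). Equal weights let Vim pass in AST1 (4.39) and Gfap in AST2 (−1.43). With equal weights edgeR called 5.52% of all genes in AST1, 5.25% in AST2 and 2.82% in AST4. The median log2 difference over all genes was then 1.20, 0.70 and 0.71, beside 0.31, −0.14 and 0.05 in the main fit. Gfap passed in AST4 with limma (3.84). DESeq2 also passed Nes in endothelial (7.72) and mural cells (6.19) and Synm in endothelial cells (5.99). In endothelial and mural cells it called 45.7% and 35.6% of all genes, so a pass there is common. By adjusted p it passed Nes between areas (3.00e-11) and in AST4 (0.0488, limma 1.83e-07), and Synm in AST3 (0.00522) and AST5 (0.0390). In that order DESeq2 called 9.70%, 11.5%, 3.99% and 43.7% of all genes, and limma 12.4% in AST4. With astrocytes limited to AST1 to AST3, chosen after seeing the data, Nes passed in endothelial and mural cells (18.32 and 16.52). These sizes depend on sums with 0 counts. Vim in endothelial cells no longer passed without the filter (2.36), with the replicate block (2.04) or with a suspension left out (1.70 to 2.82). Leaving out suspensions moved the adjusted p (edgeR) of Gfap to 0.0292 to 0.0615 in endothelial and 0.0275 to 0.0555 in mural cells, and that of Vim in AST5 to 0.0177 to 0.0593; sums of at least 10 cells gave the last 0.0766. Directions turned for Synm in AST1 against the other subtypes without 2C (adjusted p 1.00 with edgeR, as with all suspensions), Synm between areas (−3.20 to 1.29 with suspensions left out, −2.37 without AST4) and within AST1 (−6.62 to 8.655 with suspensions left out), Vim between areas in AST1 (−0.77 to 0.19), Gfap in AST3 (−0.57 to 0.20) and AST5 (−0.15 to 0.44, −0.033 with equal weights), Vim in AST3 with limma (−0.49) and Vim in mural cells (−0.64 to 0.76, −0.019 with the replicate block). The block changed no other call of a filament gene. Of the 5 genes most like each, rank correlation kept 2 for Gfap, 1 for Vim, 0 for Nes and 1 for Synm, and leaving out AST5 kept 2 for Gfap and 3 for Vim.

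Numbers of genes called moved more. Between areas edgeR called 0% of the genes tested, thinning 1.42%, limma 2.64% and DESeq2 9.70%, and within AST1 and AST3 DESeq2 called 17.5% and 13.8% against 0%. Against the other subtypes the shares were 0.0384% in AST1 (0% to 5.52% over the alternatives), 0.0548% in AST2 (0% to 5.25%), 0% in AST3 (0% to 4.95%), 0.636% in AST4 (0.0846% to 12.4%) and 17% in AST5 (7.29% to 43.7%). Against astrocytes they were 22.6% in endothelial (1.51% to 45.7%, 2.72% with the replicate block) and 20% in mural cells (1.63% to 35.6%, 3.04% with the block). With 2 suspensions per area no permutation can reach the usual threshold, and Nes and Synm in astrocytes rest on 9 and 13 cells.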
